A study of Homo sapiens with 5 samples.

Results

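The human ribosomal DNA (rDNA) repeats of the chromosome 21 arrays, with every unplaced, alternate and patch contig, were examined as sites of crosslinked RNA. Members were the listed regions on chromosome 21 with a start from 8000000 to 9100000, and all listed regions outside chromosomes 1 to 22, X, Y and MT. They were 253 of 3147 regions over 5 libraries: 42 of 472 in GFP, 36 of 183 in the first GFP-(GR)50 library, 67 of 1339 in the untransfected library, 77 of 348 in GFP-(GP)10 and 31 of 805 in the second GFP-(GR)50 library. Of these, 204 lay on 11 blocks of rDNA sequence (whole or partial copies and 1 fragment with 18S sequence), 18 on rRNA fragments of the contigs KI270442.1 and KZ559112.1, and 31 elsewhere.

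The protein pulled down was GFP-(GR)50, green fluorescent protein with 50 glycine-arginine units, and its RNA was read by CLIP-Seq, in which ultraviolet light links RNA to protein. The cells were HEK-293, an established human embryonic kidney line, and the fusions were brought in by lipofectamine transfection, on top of what the cells make themselves. Poly-GR is one of the dipeptide chains translated from C9ORF72 repeat expansions in ALS and FTD. Experiment 1 paired a library of GFP-transfected cells with GFP-(GR)50 replicate 1 (the first library), at 0.04 units/ml RNase I. Experiment 2 paired a library of untransfected cells and one of GFP-(GP)10, which carries 10 glycine-proline units, with GFP-(GR)50 replicate 2 (the second library), at 0.02 units/ml. The ultraviolet dose was 100 mJ/cm2 at 254 nm, and each lysate met GFP-Trap beads for 1.5 hours. For the controls, RNA came from the membrane area that matched the size of the fusion's complex. Each control group is 1 library and the 2 GFP-(GR)50 libraries differ in experiment and RNase, so differences between libraries have no replicate check within an experiment.

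The rDNA repeat is transcribed in the nucleolus by RNA polymerase I into a 45S precursor. Along that precursor the 5′ external transcribed spacer (ETS), 18S rRNA, internal transcribed spacer ITS1, 5.8S rRNA, ITS2, 28S rRNA and the 3′ ETS follow each other. The spacers are cut away and degraded, 18S rRNA goes to the small ribosomal subunit, and 5.8S and 28S rRNA go to the large one.

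Small RNA genes of the array show where the lists reach beyond mature rRNA, and their sequences are given for that reason, from RefSeq on GRCh38.p14, all on the plus strand. In the hairpins the capitals mark the annotated mature arms, and in the mature miRNA they mark the seed, bases 2 to 8. MIR10396B (chr21:8436324-8436374) starts at base 3103 of the RNA45SN1 precursor, in the 5′ ETS. MIR10396A (chr21:8987617-8987665) and hsa-miR-3648 of MIR3648-2 (chr21:8987026-8987046) lie on a separate fragment with 18S sequence. MIR6724-4 (chr21:8432530-8432621) starts 692 bp before RNA45SN1, outside the precursor.
MIR10396B hairpin: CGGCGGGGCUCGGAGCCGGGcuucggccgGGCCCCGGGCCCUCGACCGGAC
MIR10396A hairpin: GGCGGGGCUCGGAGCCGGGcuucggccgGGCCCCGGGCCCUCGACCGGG
hsa-miR-3648: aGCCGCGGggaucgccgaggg
MIR6724-4 hairpin: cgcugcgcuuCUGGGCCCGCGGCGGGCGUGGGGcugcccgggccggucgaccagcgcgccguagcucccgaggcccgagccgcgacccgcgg
The hairpins of MIR10396B (51 bases) and MIR10396A (49 bases) share a run of 48 bases. Their G+C content was 86.3% and 87.8%.

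Listed regions ran over both MIR10396 hairpins in GFP and in both GFP-(GR)50 lists, and over neither in the untransfected library or GFP-(GP)10. The region that held MIR10396B had 1192 reads over 4366 bp in GFP, 2169 reads over 7352 bp in the first GFP-(GR)50 library and 12735 reads over 13386 bp in the second GFP-(GR)50 library. These regions are far wider than the hairpin, so the values describe the precursor around it and not a processed miRNA. hsa-miR-3648 lay inside a listed region in each GFP-(GR)50 list but in none of the controls. In GFP its position fell in a gap between regions of 5.05 and 224 reads. No list had a region on MIR6724-4 or on its identical copy MIR6724-2.

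In both GFP-(GR)50 lists, most listed reads lay on rDNA or contigs. A listed read is a read in a listed region, with reads that map to several places scaled by the authors, and no list holds a region with fewer than 5. The share was 93.8% (93.6 to 94.0, exact Clopper-Pearson 95% interval) in the first GFP-(GR)50 library and 61.0% (60.4 to 61.5) in GFP. It was 91.1% (90.9 to 91.2) in the second GFP-(GR)50 library, 53.9% (53.2 to 54.5) in the untransfected library and 72.3% (71.3 to 73.3) in GFP-(GP)10. Both GFP-(GR)50 libraries were above all 3 controls. The ratio was 1.54 (1.51 to 1.56) over GFP, 1.69 (1.66 to 1.72) over the untransfected library and 1.26 (1.23 to 1.29) over GFP-(GP)10. The mean was 92.4% ± 1.89 (SD, n = 2) against 62.4% ± 9.30 (SD, n = 3) in the controls, and an exact two-sided permutation test over libraries gave p = 0.2, the smallest this design allows. That test ignores the experiment. Within experiment 1 the difference was 32.8 points of percent, and within experiment 2 it was 37.2 over the untransfected library and 18.8 over GFP-(GP)10. With the experiment as a block, added after the data were seen, the difference was 30.04 points, and an exact permutation test within experiments (6 arrangements) gave p = 0.167, again the smallest possible. The labels do not say whether the libraries came from separate cultures, so this p measures the spread between libraries only. All intervals cover counting error only, and scaled reads depend on each other, which makes the intervals of listed reads too narrow.

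Reads that map to one place gave a wider separation. They put 44.4% (41.9 to 46.8) of such reads on members in the first GFP-(GR)50 library and 3.16% (2.74 to 3.63) in GFP. The shares were 25.1% (24.2 to 26.0) in the second GFP-(GR)50 library, 1.68% (1.42 to 1.98) in the untransfected library and 2.69% (1.94 to 3.64) in GFP-(GP)10. The ratios were 14.03 over GFP, 14.9 over the untransfected library and 9.32 over GFP-(GP)10. These reads were 711 of 1603 in the first GFP-(GR)50 library and 197 of 6230 in GFP, and on members they made up 0.759% (GFP-(GP)10) to 1.90% (the second GFP-(GR)50 library) of listed reads.

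**Figure D1:**
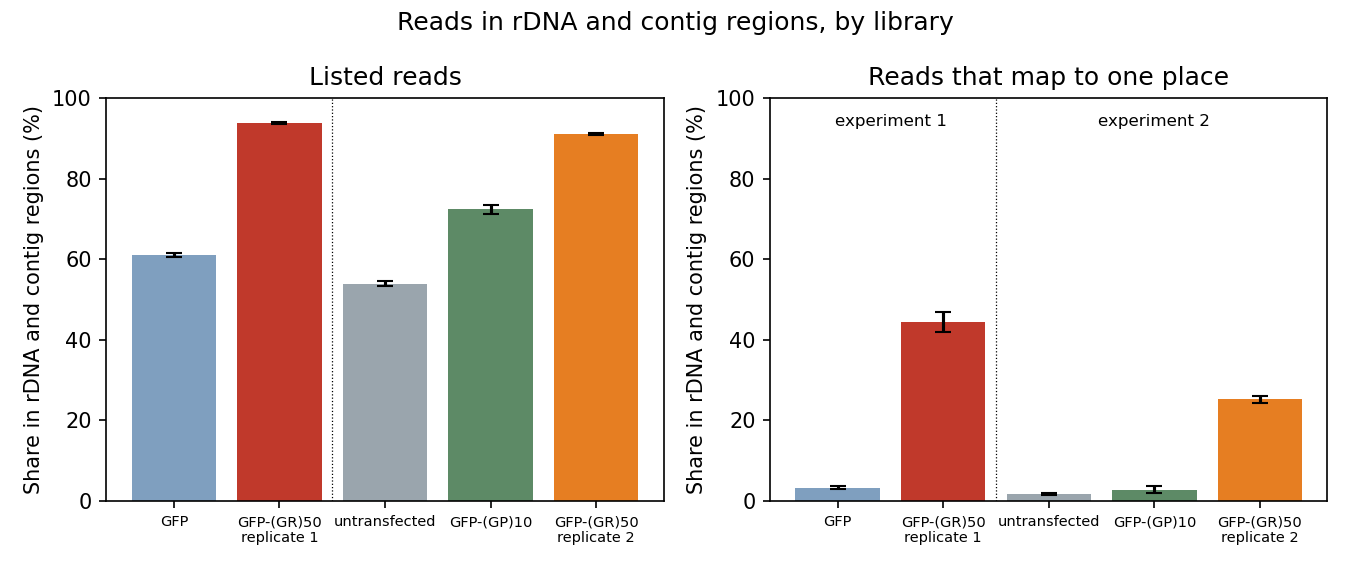
Share of reads on rDNA and contig regions in each library, for listed reads (left) and reads that map to one place (right), in percent, with exact 95% intervals of counting error; the dotted line parts the experiments. Both GFP-(GR)50 libraries stand above all controls, at 93.8% and 91.1% of listed reads and at 44.4% and 25.1% of reads that map to one place.

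Reads were also denser on members. Members held 514 reads per kb of listed sequence in the first GFP-(GR)50 library and 205 in GFP, a ratio of 2.51, while other regions held 176 and 310. In the second GFP-(GR)50 library members held 915 reads per kb, against 114 in the untransfected library and 66.6 in GFP-(GP)10, ratios of 8.05 and 13.7. Other regions held 170, 140 and 118 in the same lists, ratios of 1.21 and 1.44. The listed totals ran from 7468 reads in GFP-(GP)10 to 134222 in the second GFP-(GR)50 library, the sources used here give no total depth of a library, and the part of depth in these densities was not tested.

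The widest member was a single region of 13408 bp on RNA45SN4 in the second GFP-(GR)50 library, with 14665 reads. The annotation of experiment 2 names 5 copies of the whole precursor, RNA45SN1 to RNA45SN3 on chromosome 21, RNA45SN4 on KI270733.1 and RNA45SN5 on GL000220.1. RefSeq places each part on them, and offsets below count from the start of the precursor and hold to 1 bp, because the sources used here do not say at which base the files start to count. Regions on the 11 rDNA blocks all lay on the sense strand, 204 of 204. The copies are nearly identical and share reads, so they are not replicates, and ranges over copies are no error of a condition.

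Over RNA45SN4 the GFP-(GR)50 lists left few bases uncovered. Their regions covered 98.1% in the first GFP-(GR)50 library, with 7964 reads, and 100% in the second GFP-(GR)50 library, with 14665. Coverage was 86.6% in GFP (2611 reads), 80.7% in the untransfected library (1291 reads) and 62.4% in GFP-(GP)10 (596 reads). Coverage thus followed the order of the read totals in all 5 lists. Listed regions start at 5 reads, and the part of read number in the coverage of any stretch was not tested.

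**Figure D2:**
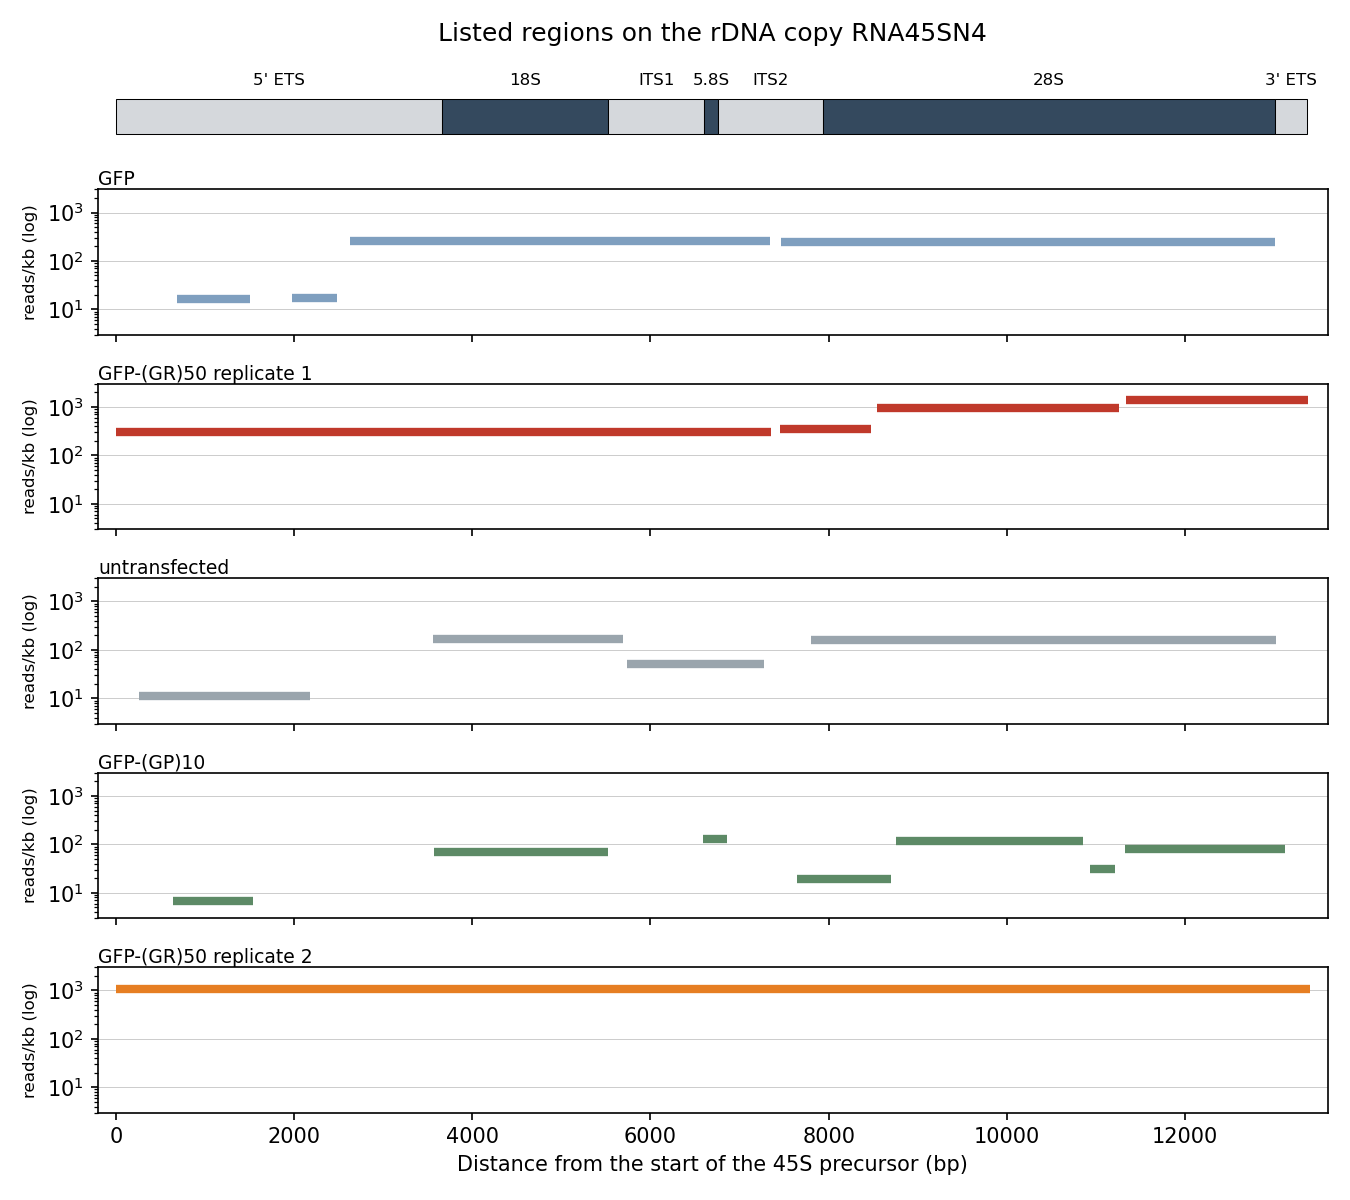
Listed regions on RNA45SN4 in the 5 libraries, as reads per kb (log scale) against the distance from the 45S start in bp; each line is 1 region and its height the region's mean density, with the parts of the precursor drawn on top. The second GFP-(GR)50 library is 1 region, the first GFP-(GR)50 library rises to 1386 reads per kb at the 3′ end, and the controls leave gaps in the spacers.

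The 5′ ETS, the leading spacer, was listed further towards its start in both GFP-(GR)50 libraries than in any control. The first listed base was the first base of the precursor in the first GFP-(GR)50 library and lay 2 bp before it in the second GFP-(GR)50 library, on all 5 copies. It lay 263 bp into the precursor in the untransfected library, 426 to 686 bp in GFP and 633 to 639 bp in GFP-(GP)10. No control region reached the start of any of the 5 copies. Regions covered 94.0% to 99.97% of the 5′ ETS in the first GFP-(GR)50 library and 94.4% to 100% in the second GFP-(GR)50 library. They covered 46.0% to 64.4% in GFP, 53.4% to 55.1% in the untransfected library and 26.7% to 33.3% in GFP-(GP)10. On RNA45SN3, where the second GFP-(GR)50 library splits into 3 regions, the leading stretch of 3076 bp held 71.4 reads per kb of its whole length in the first GFP-(GR)50 library and 6.56 in GFP. It held 196 in the second GFP-(GR)50 library, 6.62 in the untransfected library and 1.78 in GFP-(GP)10. Listed regions took up 3075, 1324, 3076, 1848 and 894 bp of it in that order, and the reads of bases that are not listed are unknown. The bounds of the stretch are those of the region in the second GFP-(GR)50 library, so that list fills it by definition. In the 4 lists other than GFP, this stretch had the lowest density of the 3. GFP could not be set beside the others past this stretch, because a region with 49.6% of its reads on the copy crosses the boundary.

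Mature 18S rRNA, the RNA of the small subunit, was covered to 100% on all 5 copies in all 5 lists. Only GFP-(GP)10 had a region of RNA45SN4 that lies at least 90% within 18S, with 137 reads over 1955 bp. The list also had regions of that kind on 28S, and the ratio of 28S to 18S reads was 2.90 (2.39 to 3.55). This ratio is not corrected for length, and 28S is 5077 bp long against 1869 bp for 18S. With reads divided over parts by length, 28S held 79.5 reads per kb and 18S 70.2. In the other 4 lists the region over 18S ran further into the spacers, so the ratio could not be given for them by this rule. For the untransfected library the region over 18S ran from 3562 to 5688 and held 172 reads per kb, while the region in the 5′ ETS held 11.4.

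ITS1, which parts 18S from 5.8S and is removed early in maturation, was covered to 100% in GFP and in both GFP-(GR)50 lists. Coverage was 95.1% to 95.2% in the untransfected library, where a gap of 52 bp lay on RNA45SN4. In GFP-(GP)10 it was 1.30% to 1.39%. ITS1 was therefore listed in controls of both experiments, and the GFP-(GP)10 list, with the fewest reads, was the 1 list in which it was nearly absent.

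The 5.8S rRNA, which pairs with 28S in the large subunit, was covered to 100% on all copies in every list. In GFP-(GP)10 it lay in a narrow region of 269 bp with 34.6 to 34.7 reads on each copy. That region also took in spacer on both sides, since 5.8S is 156 bp long on RNA45SN4. At 129 reads per kb this was the densest region of RNA45SN4 in that list, above the 70.2 of its 18S region and the 116 of its densest 28S region. The order depended on the copy, because on RNA45SN3 a 28S region held 131 reads per kb against 129. In the other lists 5.8S lay inside wider regions of 1528 to 13408 bp and has no value of its own.

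ITS2, the spacer between 5.8S and 28S, held a gap in every list except the second GFP-(GR)50 library. It was covered to 89.0% to 91.9% in the first GFP-(GR)50 library and 72.2% to 89.7% in GFP, ranges that overlap. Coverage was 100% in the second GFP-(GR)50 library, 53.3% to 55.1% in the untransfected library and 31.2% to 32.8% in GFP-(GP)10. On RNA45SN4 the gaps lay at nearly the same place in both lists of experiment 1, from 7356 to 7454 in the first GFP-(GR)50 library and from 7346 to 7470 in GFP. They were wider in experiment 2, at 528 bp in the untransfected library and 789 bp in GFP-(GP)10.

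The 28S rRNA, the catalytic RNA of the large subunit, was covered to at least 96.5% in all lists except GFP-(GP)10, where the range was 90.2% to 95.4%. The first GFP-(GR)50 library left a gap of 77 bp in 28S, from base 542 to 618, on all 5 copies. On RNA45SN4 the regions on its sides held 343 and 952 reads per kb. No other list had a gap at those bases, and GFP had no gap between regions within 28S on the 5 copies, with 2611 reads on RNA45SN4 against 7964. In GFP-(GP)10 a gap of 54 bp lay at bases 773 to 826 on RNA45SN1, RNA45SN2, RNA45SN4 and RNA45SN5.

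In the first GFP-(GR)50 library more reads lay downstream of the ITS2 gap than upstream, while in GFP the interval of that ratio included 1 on 4 of 5 copies. Downstream of it, on 28S and its flanks, the first GFP-(GR)50 library had 2.22 to 2.62 times as many reads as upstream over the 5 copies, and GFP had 0.967 to 1.14 times as many. The copies share reads, so neither range measures a spread between libraries. In experiment 2 the controls had 1.58 to 1.77 times as many downstream (untransfected) and 2.09 to 2.35 times as many (GFP-(GP)10), and the second GFP-(GR)50 library has no gap there, so its value could not be given. The control lists therefore differed from each other as well, and the values of GFP-(GP)10 over the copies overlapped those of the first GFP-(GR)50 library. On RNA45SN4 the density in the first GFP-(GR)50 library went from 299 reads per kb upstream to 343, 952 and 1386 downstream, while GFP held 254 and 251 on its 2 wide regions. The 343 is for a region partly in ITS2. The upstream regions differ, because that of the first GFP-(GR)50 library starts at base 1 and that of GFP at 2628. On RNA45SN3, where most of the 5′ ETS is listed apart, the first GFP-(GR)50 library held 488 upstream and 328, 78.7 and 1060 downstream. GFP held 304 and 217 there. On RNA45SN3 the stretch from within 28S to the end of the precursor held 1883 reads per kb in the second GFP-(GR)50 library, against 745 from 18S to the 5′ part of 28S. Over the same whole lengths the values were 165 and 86.3 in the untransfected library and 81.8 and 34.7 in GFP-(GP)10, where listed regions leave part of both stretches out. The bounds of both stretches are those of regions in the second GFP-(GR)50 library, which fills them by definition.

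The 3′ ETS, the trailing spacer, was covered to 100% on all 5 copies in both GFP-(GR)50 lists, and to at most 35.7% in any control list. The controls covered 0% to 35.7% in GFP, 4.11% to 4.16% in the untransfected library and 30.3% to 30.7% in GFP-(GP)10. The last listed base lay 14 bp past the annotated end of the precursor in the first GFP-(GR)50 library and 34 bp past it in the second GFP-(GR)50 library. The control regions stopped near the end of 28S, 15 bp past it in the untransfected library, 110 to 112 bp in GFP-(GP)10 and between 1 bp before it and 129 bp past it in GFP.

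**Figure D3:**
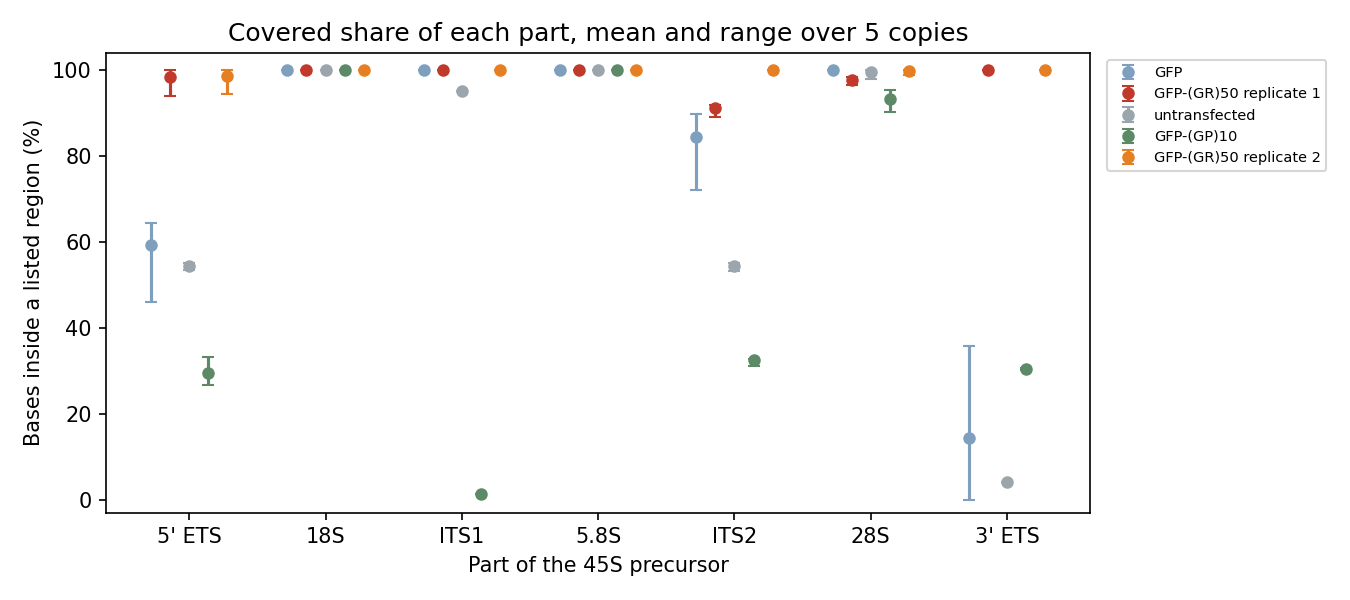
Covered share of each part of the 45S precursor in percent, as the mean (points) and range (bars) over the 5 annotated copies in each library. 18S and 5.8S are at 100% in all lists, while the 3′ ETS is at 100% in both GFP-(GR)50 lists and at 35.7% or less in the controls.

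The 5 annotated copies carried nearly equal numbers of listed reads within each list. The highest copy had 1.07 times (untransfected) to 1.16 times (the second GFP-(GR)50 library) the reads of the lowest. RNA45SN4 was the highest in every list, and its excess over RNA45SN5 was close to its own reads that map to one place. Without those reads it had 7428 reads against 7423 on RNA45SN5 in the first GFP-(GR)50 library and 2490.0 against 2489.6 in GFP. The values were 13022 against 13043 in the second GFP-(GR)50 library, 1242 against 1241 in the untransfected library and 568 against 566 in GFP-(GP)10. Over the 5 lists the ratio of RNA45SN4 to RNA45SN5 was 1.04 to 1.12 with these reads and 0.998 to 1.00 without them.

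**Figure D4:**
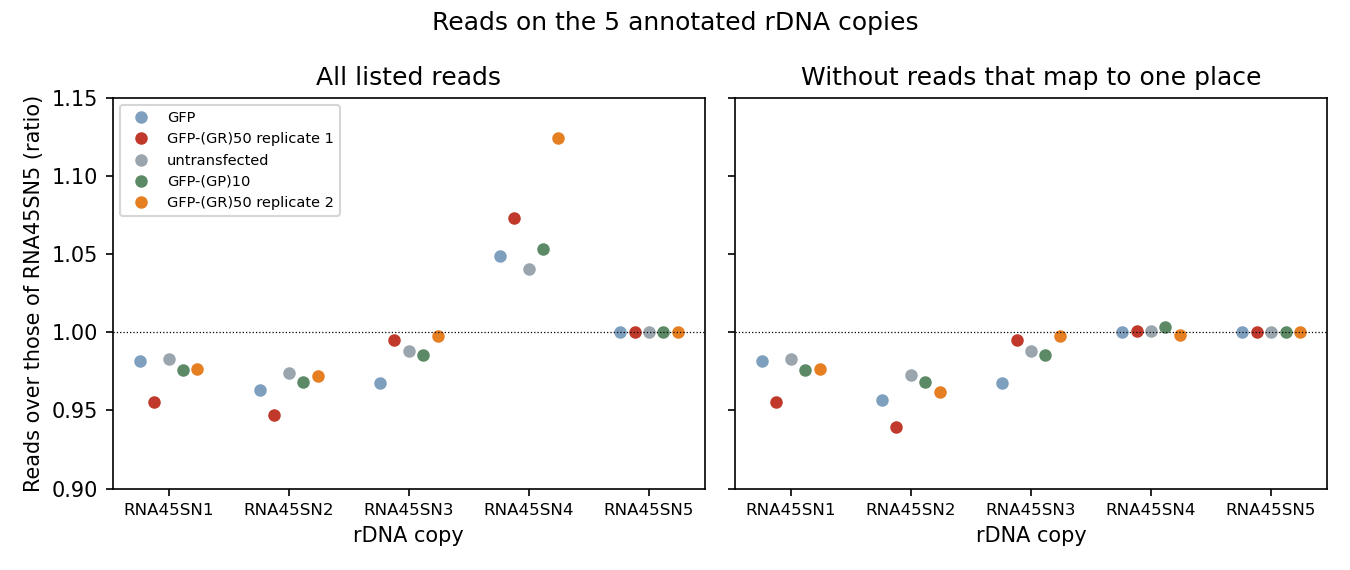
Listed reads on each annotated rDNA copy divided by those of RNA45SN5, in the 5 libraries, with all listed reads (left) and without reads that map to one place (right). RNA45SN4 lies at 1.04 to 1.12 on the left and at 0.998 to 1.00 on the right; the axis does not start at 0.

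Reads that map to one place fell mostly on this 1 copy, except in the untransfected library. RNA45SN4 held 536 of the 711 such member reads (75.4%) in the first GFP-(GR)50 library, 1643 of 2317 (70.9%) in the second GFP-(GR)50 library, 121 of 197 (61.4%) in GFP, 28 of 41 (68.3%) in GFP-(GP)10 and 49 of 145 (33.8%) in the untransfected library. RNA45SN1, RNA45SN3 and RNA45SN5 had 0 in all 5 lists, and RNA45SN2 had 0 to 132. In the first GFP-(GR)50 library, 509 of the 536 lay in the last region, from 133609 to 135659 on KI270733.1, which starts 11337 bp into the precursor. In GFP-(GP)10 all 28 lay in its region from 133602 to 135392. The 3′ part of 28S and the 3′ ETS of RNA45SN4 thus held most of the reads that could be placed on the copy in those 2 lists.

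Further copies lie on the contigs, and they were found as regions of the second GFP-(GR)50 library no more than 500 bp apart with at least 500 reads, a rule set after the data were seen. KI270733.1 and GL000220.1 each hold a second copy of 12419 and 12408 bp. Those copies had 10202 and 9950 reads in the second GFP-(GR)50 library, 5491 and 5422 in the first GFP-(GR)50 library, and 2172 and 2161 in GFP. The patch contig ML143377.1 holds copies of 13344 and 13386 bp that occur in the experiment 2 lists alone. Its first copy had 13008 reads in the second GFP-(GR)50 library, against 13009 on RNA45SN3, and 1225 and 557 in the untransfected library and GFP-(GP)10, against 1226 and 558. No contig of this kind occurs in the lists of experiment 1, and with such contigs left out of members and totals, a choice made after the data were seen, the ratio for the second GFP-(GR)50 library was 1.86 over the untransfected library and 1.32 over GFP-(GP)10. A partial copy on chromosome 21, from 8250195 to 8260984, had 8774 reads in the second GFP-(GR)50 library, 4732 in the first GFP-(GR)50 library, 1634 in GFP, 966 in the untransfected library and 416 in GFP-(GP)10.

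Regions of 2 lists that overlapped were merged into loci, and each locus was compared by its share of all listed reads. Most member loci repeat the same few stretches on near-identical copies that share reads. The counts of member loci here and below are therefore not counts of independent loci. Of 23 member loci in both the first GFP-(GR)50 library and GFP, 9 were at least 2-fold higher in GFP-(GR)50, against 16.1% of all loci in both lists, and 3 were at least 2-fold lower, against 47.1%. The median ratio was 1.08 over members and 0.558 over all loci. The 3 loci of the leading 5′ ETS had ratios of 4.05, 5.88 and 5.90. On the 8 copies and partial copies, loci on the 5′ side of the ITS2 gap had ratios of 0.884 to 0.979, and those on the 28S side 1.86 to 2.54. The share of the first GFP-(GR)50 library was thus above that of GFP on the 28S side and on the separate 5′ ETS loci, while the loci on the 5′ side of the copies had ratios below 1. With reads that map to one place, 9 of the 9 member loci that could be compared were higher and 0 lower, against 68.3% and 17.1% of all loci. Per listed read outside the members, 21 of 23 were higher, against 60.9%, and 0 lower, against 8.05%. This denominator multiplies every ratio of a comparison by the same factor, which the member shares set. The median ratio became 6.75 over members and 3.48 over all loci, so this count adds nothing independent of those shares. At 4-fold of the share of all listed reads, 3 of 23 were higher, against 6.9%, and 1 lower, against 28.7%.

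In experiment 2 the same count was 6 of 21 higher and 4 of 21 lower than in the untransfected library, against 5.91% and 83.7% of all loci in both lists. Compared with GFP-(GP)10 it was 5 of 22 higher and 4 of 22 lower, against 5.79% and 76.9%. The median ratio of members was 1.73 over the untransfected library and 1.28 over GFP-(GP)10, and that of all loci 0.126 and 0.0955. The 4 loci of the leading 5′ ETS had ratios of 4.49 to 5.39 over the untransfected library and 5.22 to 6.66 over GFP-(GP)10. They held 19.5 to 20.4 reads each in the untransfected library and 5.47 to 5.55 in GFP-(GP)10, near the floor of 5. Their intervals lay within 2.92 to 8.50 over the untransfected library and within 2.47 to 17.9 over GFP-(GP)10. These 4 loci are the same stretch on different copies, and all 4 are among the higher loci of both counts. The other loci on rDNA copies had ratios of 1.46 to 1.91 and 1.12 to 1.37, and none of them reached 2-fold. Both comparisons share the second GFP-(GR)50 library.

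These counts changed with the denominator, and leaving the members out of it again multiplied every ratio of a comparison by the same factor. Per listed read outside the members, 17 of 21 loci were higher and 2 lower than in the untransfected library, against 22.2% and 32.5% of all loci, and 18 of 22 were higher and 1 lower than in GFP-(GP)10, against 21.5% and 57.9%. With reads that map to one place, 7 of 8 were higher and 0 lower than in the untransfected library, against 21.7% and 33.8%. In the comparison with GFP-(GP)10, 6 of 7 were higher and 1 lower, against 16.7% and 73.1%. At 4-fold, 5 of 21 were higher and 3 lower than in the untransfected library, against 3.94% and 70.4%. The counts over GFP-(GP)10 were 5 and 3 of 22, against 4.96% and 71.1%.

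**Figure D5:**
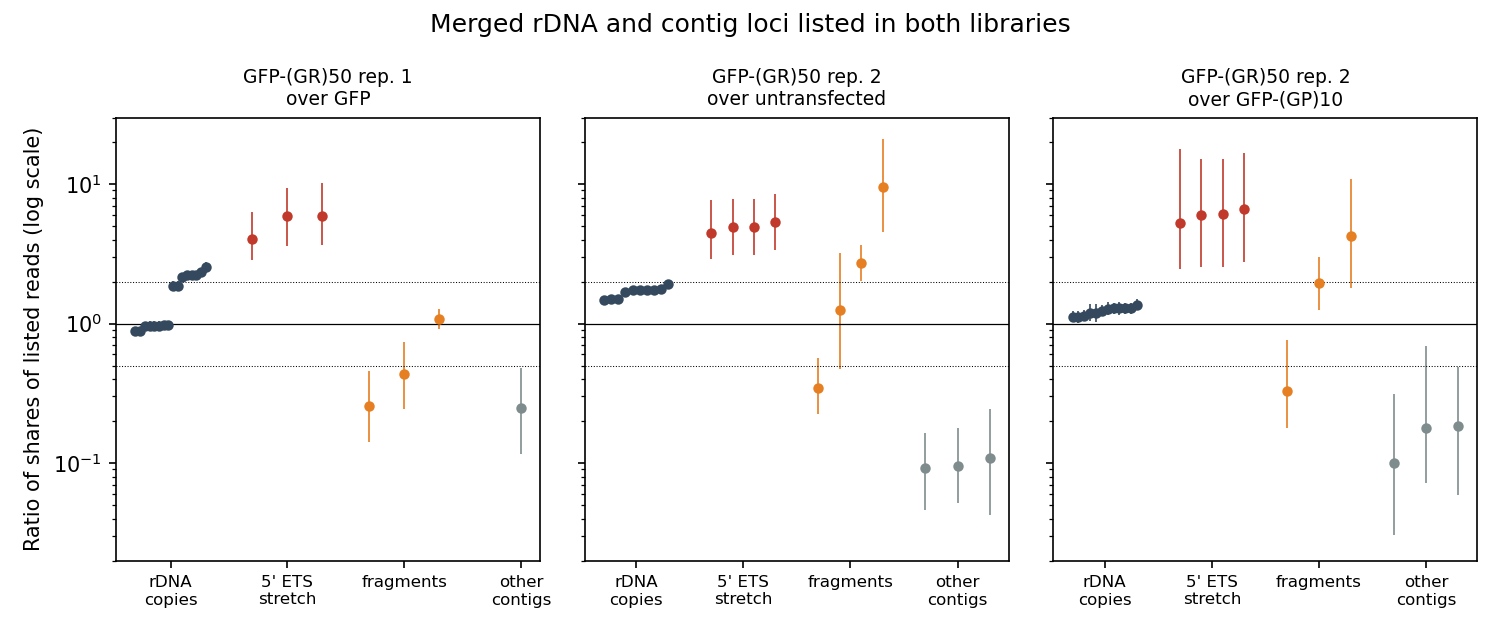
Ratio of shares of listed reads, GFP-(GR)50 over control (log scale), for member loci listed in both libraries, with 95% intervals of counting error; dotted lines mark 2-fold. The 5′ ETS loci lie between 4.05 and 6.66 in the 3 comparisons and the other contig loci between 0.0920 and 0.247.

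Shorter rRNA fragments did not all follow the copies. The separate block with 18S sequence on chromosome 21, from 8986603 to 8988752, which carries MIR3648-2 and MIR10396A, had 786 reads in the second GFP-(GR)50 library, 48.9 in the untransfected library and 22.6 in GFP-(GP)10. Its share of listed reads was 2.70 and 1.94 times that of the controls. In experiment 1 it had 458 reads in the first GFP-(GR)50 library and 229 in GFP, a ratio of 1.08. The bounds of this block are those of the region in the second GFP-(GR)50 library, so its coverage there is 100% by definition. Of that span, 99.8% was covered in the first GFP-(GR)50 library, 93.0% in GFP, 31.3% in the untransfected library and 30.8% in GFP-(GP)10.

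A 28S fragment on KZ559112.1, on the minus strand, had the highest ratio of any member locus over the untransfected library. Its region in the second GFP-(GR)50 library, from 126779 to 127041, held 428 reads, 1634 per kb. The untransfected library had 7.57 reads there and GFP-(GP)10 had 5.61, so the ratios of shares were 9.49 and 4.25. None of these reads mapped to one place. An rRNA fragment on KI270442.1, with 18S and 5.8S sequence on the minus strand, changed order with the denominator. It held 0.0804% of listed reads in the first GFP-(GR)50 library and 0.270% in GFP, and 0.110% in the second GFP-(GR)50 library against 0.158% in the untransfected library and 0.142% in GFP-(GP)10. These shares rest on 45.5, 82.5, 147, 35.7 and 10.6 reads, listed in that order. The ratio of shares was 0.298 (0.199 to 0.426) over GFP, while over the untransfected library, at 0.692 (0.473 to 1.02), and over GFP-(GP)10, at 0.770 (0.404 to 1.52), the interval included 1. Per listed read outside the members the ratios were 1.86 (1.25 to 2.66), 3.58 (2.45 to 5.26) and 2.39 (1.25 to 4.73).

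The 31 members outside rDNA copies and fragments held few reads, between 0.0234% of listed reads in the first GFP-(GR)50 library and 0.855% in the untransfected library. They numbered 2 in GFP, 1 in the first GFP-(GR)50 library, 16 in the untransfected library, 4 in GFP-(GP)10 and 8 in the second GFP-(GR)50 library. A locus on KI270713.1 that the experiment 1 annotation names U1, the small nuclear RNA that recognises 5′ splice sites, occurred in all 5 lists with 29.0, 13.2, 31.5, 5.50 and 17.8 reads in the order of the previous sentence. Its share was lower in GFP-(GR)50 than in every control of the same experiment, with ratios of 0.247, 0.0944 and 0.180, but the medians over all loci in the same comparisons were 0.558, 0.126 and 0.0955. Per listed read outside the members the ratios were 1.54 (0.723 to 3.01), 0.489 (0.266 to 0.930) and 0.558 (0.223 to 2.14). In the untransfected library, 5 of the 16 lay opposite a SINE, a short interspersed repeat. The share over all regions of that list is not given here, so this count marks no trait of these members.

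The first GFP-(GR)50 library had 0 of 36 members without overlap in any control list, against 43.2% of all its regions. The second GFP-(GR)50 library had 6 of 31, with 57.5 reads together, against 64.3%. They were 3 regions opposite satellite repeats on KI270466.1 and KI270467.1 with 6.35, 9.10 and 6 reads, a 7SK RNA copy on KI270816.1 with 19.5, a region on KI270853.1 with 6 and a second 28S region on KZ559112.1 with 10.5. Among controls, 13 of 67 members in the untransfected library met no GFP-(GR)50 region, against 82.0% of all regions of that list. The count was 1 of 42 in GFP, against 60.0%, and 1 of 77 in GFP-(GP)10, against 49.4%. The larger of those in the untransfected library were a region on KI270765.1 with 24.4 reads and 1 on GL000258.2 with 17.0.

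Overlap between the lists depended on the rule. With at least 1 bp shared, all 36 members of the first GFP-(GR)50 library met a GFP region on the same strand, against 55.7% of all its regions, and 40 of 42 GFP members met the first GFP-(GR)50 library, against 22.5%. In experiment 2, 23 of 31 members of the second GFP-(GR)50 library met the untransfected library (25.7% of all regions) and 22 of 31 met GFP-(GP)10 (15.0%). A stricter rule asked that 1 single region of the other list cover at least 50% of the region's length. The share of members was then 88.9% for the first GFP-(GR)50 library against GFP (51.9% of all regions). For the second GFP-(GR)50 library it was 25.8% against the untransfected library (22.6%) and 12.9% against GFP-(GP)10 (11.6%). Under that rule the members of the second GFP-(GR)50 library lay near the share of all its regions. In the other direction, with 1 bp, 54 of 67 members of the untransfected library (17.8%) and 76 of 77 of GFP-(GP)10 (50.3%) met the second GFP-(GR)50 library. Between the GFP-(GR)50 lists, 36 of 36 members of replicate 1 met replicate 2 (82.0%) and 17 of 31 of replicate 2 met replicate 1 (16.1%). Of those 31, 13 lay on contigs absent from both lists of experiment 1 and so could not meet it. Both rDNA copies of ML143377.1 are among them. The members that met a region carried between 99.1% and 100% of member reads in the 6 comparisons with controls by the rule of 1 bp.

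Genes that belong to the same pathway were sparse. The 5S rRNA genes, transcribed apart from the repeat by RNA polymerase III, had a region for 0 of 17 in every list. No list holds a region on the mitochondrial genome (0 of 3147), so the 0 of 2 mitochondrial rRNA genes say nothing about those RNAs. Of 16 genes for RNAs that guide or cut the precursor, 7 had a region in GFP and 2 in the first GFP-(GR)50 library. In experiment 2, 5 had a region in the untransfected library, 4 in GFP-(GP)10 and 7 in the second GFP-(GR)50 library. The 5 and the 4 were all SNORD3 genes, which encode 1 RNA, U3, and no U3 read in any list mapped to one place. The 7 in each of GFP and the second GFP-(GR)50 library were SNORD3 genes, SNORD118 and RMRP, and the 2 were SNORD3A and RMRP. SNORD3A, the U3 RNA needed for cleavage in the 5′ ETS, had 18.7 reads in GFP, 5.34 in the first GFP-(GR)50 library, 13.6 in the untransfected library, 8.81 in GFP-(GP)10 and 29.8 in the second GFP-(GR)50 library. As a share of listed reads this was 0.0610%, 0.00944%, 0.0604%, 0.118% and 0.0222%. On that scale it was lower in GFP-(GR)50 than in every control, but the order turned with the denominator. Per listed read outside the members the ratio was 0.967 (0.259 to 2.46) over GFP, 1.90 (1.014 to 4.19) over the untransfected library and 0.584 (0.267 to 1.38) over GFP-(GP)10. RMRP, the RNA of the enzyme that cuts ITS1, had 17.0 reads in GFP, 8 in the first GFP-(GR)50 library and 31.5 in the second GFP-(GR)50 library, and no listed region in the other lists. Of 6 mRNAs of nucleolar proteins, 1 had a region in GFP (NPM1), 1 in GFP-(GP)10 (NCL) and 1 in the second GFP-(GR)50 library (POLR1B), with 5, 7 and 6 reads. Markers of HEK-293 cells (0 of 5) and of other cell types (0 of 4) had no region in any list, so the lists do not check the cell type.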

How the data were processed

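Members and gene lists were chosen with earlier results of these data known. The deposited region lists were called separately in each library. Per the submitters' processing notes, the tools include featureCounts 2.0.2, bedtools 2.30.0, UMI-tools 1.1.2 and Novoalign 4.03.03, with the builds GRCh38.p13 and hg38, and the region caller not given in the sources used here. Per the file headers, 1 deposited column counts the reads placed uniquely (a count), with 6 values that are not whole in the second GFP-(GR)50 library, taken there as an expected count, and none of these on members. The other also takes in multimapping reads, which the authors scaled, an expected count (estimated count) with an unknown factor. Neither is scaled for depth, and no value of the second is under 5.

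Shares have exact Clopper-Pearson 95% intervals. Regions overlapped if they shared at least 1 bp and the strand, and a call was a 2-fold ratio of shares of listed reads, without a test, since each control is 1 library. For ratios, merged loci and overlap with controls, each GFP-(GR)50 library was compared with controls of its own experiment. Members without overlap were sought over the lists of both experiments, which differ in RNase and annotation. Parts of the precursor came from RefSeq on GRCh38.p14, another patch release of the files' assembly. A region counted for a part or stretch if at least 90% lay in it. Named regions were those with gene names, the 5 with most listed reads and 3 with most reads that map to one place in each list, members without overlap in the lists compared (up to 10), and the widest and narrowest. The annotation differs between experiments, in gene names and patch contigs. Read minimum, overlap, fold, copy, denominator and read column were varied. Python 3.11.15, pandas 2.3.3, NumPy 2.4.6, SciPy 1.17.1 and matplotlib 3.10.9 were used, and the calls were tested on simulated data. The simulated lists had the same regions, equal totals and independent reads, with low values raised. They did not test shared reads, differing region bounds or unequal totals.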

Additional observations from a re-analysis of the deposited data

Results flagged for a closer look

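Members as a share of all regions moved in opposite directions in the 2 experiments. The share was 10.8 points of percent higher in the first GFP-(GR)50 library than in GFP (19.7% against 8.90%). In the second GFP-(GR)50 library the difference was -1.15 points against the untransfected library (3.85% against 5.004%) and -18.3 points against GFP-(GP)10 (22.1%). Members of the second GFP-(GR)50 library had a median width of 2401 bp, against 1528 bp in the untransfected library and 899 bp in GFP-(GP)10. The difference between the experiments was not tested.

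The covered share of 28S, as the mean over the 5 annotated copies, also moved in opposite directions. The difference was -2.22 points in the first GFP-(GR)50 library against GFP (97.8% against 99.99%). It was 0.202 points against the untransfected library and 6.49 points against GFP-(GP)10 in the second GFP-(GR)50 library (99.8% against 99.6% and 93.3%). The gap of 77 bp at bases 542 to 618 of 28S in the first GFP-(GR)50 library is part of this value. The difference between the experiments was not tested.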

How the results depend on the processing

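No paired analysis was possible because each control has 1 library, so that replicate numbers pair none of them; with the experiment as a block the difference of rDNA shares was 30.04 points. Of 103 values under an alternative setting, 50 stayed within the interval, spread or margin of the value reported first, 48 moved and 5 reversed. The 5 arose per listed read outside the members, added after the data were seen: the KI270442.1 fragment (1.86, 3.58 and 2.39 over GFP, the untransfected library and GFP-(GP)10), SNORD3A over the untransfected library (1.90) and U1 over GFP (1.54). On that scale 21 of 23, 17 of 21 and 18 of 22 loci were higher and 0, 2 and 1 lower. That scale multiplies every ratio of a comparison by the same factor. The ratio of rDNA read shares, given over GFP, then untransfected, then GFP-(GP)10, became 14.03, 14.9 and 9.32 with reads that map to one place, 1.49, 1.22 and 1.05 with at least 10 listed reads, and 1.43, 1.155 and 1.17 with 183 top regions. It became 52.9, 15.7 and 6.89 per read outside members and annotated rRNA. Over GFP it was 1.58 on the chromosome 21 array and 1.49 on contigs, and without the contigs absent from experiment 1, an alternative chosen after seeing the data, it was 1.86 over the untransfected library and 1.32 over GFP-(GP)10. The mean share of the GFP-(GR)50 lists was 91.1% to 93.8% leaving out each in turn, and 34.7% of reads that map to one place.

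With at least 10 reads a region, RNA45SN4 was covered to 82.8% in GFP and 53.6% in GFP-(GP)10. On RNA45SN1, RNA45SN2, RNA45SN3 and RNA45SN5 the values outside the interval were 85.5%, 80.9% and 85.9% in GFP (RNA45SN2, RNA45SN3, RNA45SN5). They were 98.7%, 96.1% and 98.7% in the first GFP-(GR)50 library, 63.3%, 60.6% and 63.3% in GFP-(GP)10 (both RNA45SN1, RNA45SN3, RNA45SN5), 79.5% in the untransfected library (RNA45SN3), and 99.5% and 98.1% in the second GFP-(GR)50 library (RNA45SN2, RNA45SN3). With at least 50% of the region overlapped by 1 single region of the other list, 88.9% of the first GFP-(GR)50 library members met GFP. Of the second GFP-(GR)50 library members, 25.8% met the untransfected library and 12.9% met GFP-(GP)10. At 4-fold, 3 of 23 loci were higher (6.9% of all loci) and 1 lower (28.7%) than in GFP. With reads that map to one place fewer loci could be compared, and 0 of 9 were lower than in GFP (17.1% of all), 0 of 8 than in the untransfected library (33.8%) and 1 of 7 than in GFP-(GP)10 (73.1%). The 28S to 18S ratio in GFP-(GP)10 was 2.56 to 3.08 under its alternatives, and could not be given with reads that map to one place, since 18S regions of RNA45SN4 had 0 there.

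The limits are that each control is 1 library, that listed reads leave out regions under 5 reads, that near-identical copies share reads scaled by an unknown factor, and that RNase differs between experiments and cannot be told apart from other differences between them.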
